A study of Mus musculus with 9 samples.

Results

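Ly6a, Ly6c1, Ly6e, Thy1, Cd34, Cd44, Eng, Nt5e and Vcam1 encode surface proteins by which mesenchymal and blood progenitor cells of the mouse are commonly recognised, and their levels were compared in fibroblasts that carry different isoforms of the transcription factor C/EBPβ. These 9 genes, of 23337 in the count table, were chosen from a list of mesenchymal surface and Ly6 genes with earlier results of the same 9 libraries known. Their values in the comparisons therefore describe these libraries and are no independent test of the genes. RNA was sequenced from immortalised mouse embryonic fibroblasts (MEFs) of a mixed C57BL/6 x 129 background that lack functional Cebpb. The cells were stably transfected with an empty vector (EV), with rat C/EBPβ-LAP, the long isoform that activates transcription, or with rat C/EBPβ-LIP, the short isoform that lacks the activation domains, and were kept under Zeocin. Each group had 3 libraries, and all 3 groups share the Cebpb knockout, the immortalisation and the drug selection. Neither the labels nor the methods say whether the libraries of a group came from separate cultures or transfections, so the p-values measure only the spread between these libraries, which may be technical.

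Ly6 proteins are small, cysteine-rich proteins that are held in the outer face of the cell membrane by a glycosylphosphatidylinositol (GPI) lipid anchor, and in the mouse many of their genes lie side by side on chromosome 15. Ly6a, also called Sca-1, marks haematopoietic stem cells and many mesenchymal progenitors and is known as an interferon-responsive gene. Thy1 (CD90) and Nt5e (CD73) are GPI-anchored as well, whereas Cd34, Cd44, endoglin and Vcam1 span the membrane, and several of these proteins are used together to define cultured mesenchymal stromal cells.

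How well the Ly6 genes can be told apart depends on their sequences, so the start of the coding sequence is shown for the 3 Ly6 genes. Each line gives the first 90 coding bases after splicing, from the GENCODE vM21 transcripts on GRCm38, with capitals where a base differs from Ly6a at the same position. The stretches span chr15:74996549-74997604 (minus strand) for Ly6a, chr15:75047450-75048511 (minus strand) for Ly6c1 and chr15:74957808-74958288 (plus strand) for Ly6e.
Ly6a: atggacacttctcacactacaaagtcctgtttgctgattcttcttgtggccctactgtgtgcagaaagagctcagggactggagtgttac
Ly6c1: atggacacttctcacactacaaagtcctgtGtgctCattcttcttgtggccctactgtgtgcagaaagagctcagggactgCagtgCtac
Ly6e: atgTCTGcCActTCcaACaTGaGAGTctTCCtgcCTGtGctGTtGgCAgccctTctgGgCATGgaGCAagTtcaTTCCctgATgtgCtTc
Ly6c1 differed from Ly6a at 4 of these 90 positions, whereas Ly6e differed at 46. The reads were 50 bases long, and of all stretches of that length in the transcript 91 of 906 in Ly6a and 175 of 735 in Ly6c1 also occurred in a transcript of another gene, among them each other and Ly6c2. No stretch of this length in Ly6e, Thy1, Cd44 or Nt5e was found elsewhere. The share was 4.24% for Cd34, which overlaps the gene model Gm16897 on the opposite strand, 0.351% for Vcam1 and 0.0297% for Eng, which each overlap a gene on the opposite strand too. The library kit does not mark strand, so reads of such overlapping exons cannot be assigned to 1 of the genes.

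Gene counts summed to 24839139 in the shallowest and 33522082 in the deepest library. Levels are given as CPM, counts scaled to a common library size, and the detection floor of 3 counts equals 0.0895 to 0.121 CPM by total counts. Reads carried no molecular identifiers, so floors and intervals reflect counting error alone. Pearson's r of log2 CPM across genes within a group was 0.986 to 0.994 for EV, 0.968 to 0.981 for LAP and 0.958 to 0.971 for LIP, with genes that are no independent replicates. Reads assigned to mouse Cebpb were present at 28.7 ± 2.97 CPM in EV, 29.6 ± 3.90 CPM in LAP and 31.1 ± 2.59 CPM in LIP (SD, n = 3 each), and these gene counts do not tell transgene from locus. The 12 fibroblast markers were all detected, with a summed level of 35038 to 39440 CPM in EV, 29180 to 42799 CPM in LAP and 16950 to 30068 CPM in LIP. By contrast, the 11 haematopoietic markers summed to 3.13 to 7.62 CPM, with 3 of them at 0 in all 9 libraries, and the 8 endothelial markers to 1.74 to 3.80 CPM, with 2 at 0. The 7 epithelial markers summed to 576 to 706 CPM in EV, 485 to 986 CPM in LAP and 587 to 1004 CPM in LIP.

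The levels of the 9 genes spanned 4 orders of magnitude. Per kilobase of transcript, Thy1 with 152 CPM and Vcam1 with 141 CPM were the most abundant in EV on average, and their libraries overlapped. Ly6a followed with 39.0 CPM per kilobase, above every EV library of Nt5e, which averaged 17.8 CPM per kilobase. Cd34 averaged 10.9 CPM per kilobase, and its libraries overlapped those of Nt5e. Cd44 with 1.17 and Ly6c1 with 0.793 CPM per kilobase overlapped each other. Eng with 0.0402 and Ly6e with 0.0108 CPM per kilobase lay at the bottom, so the cells carried ample Thy1, Vcam1 and Ly6a RNA but hardly any endoglin or Ly6e RNA.

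**Figure D1:**
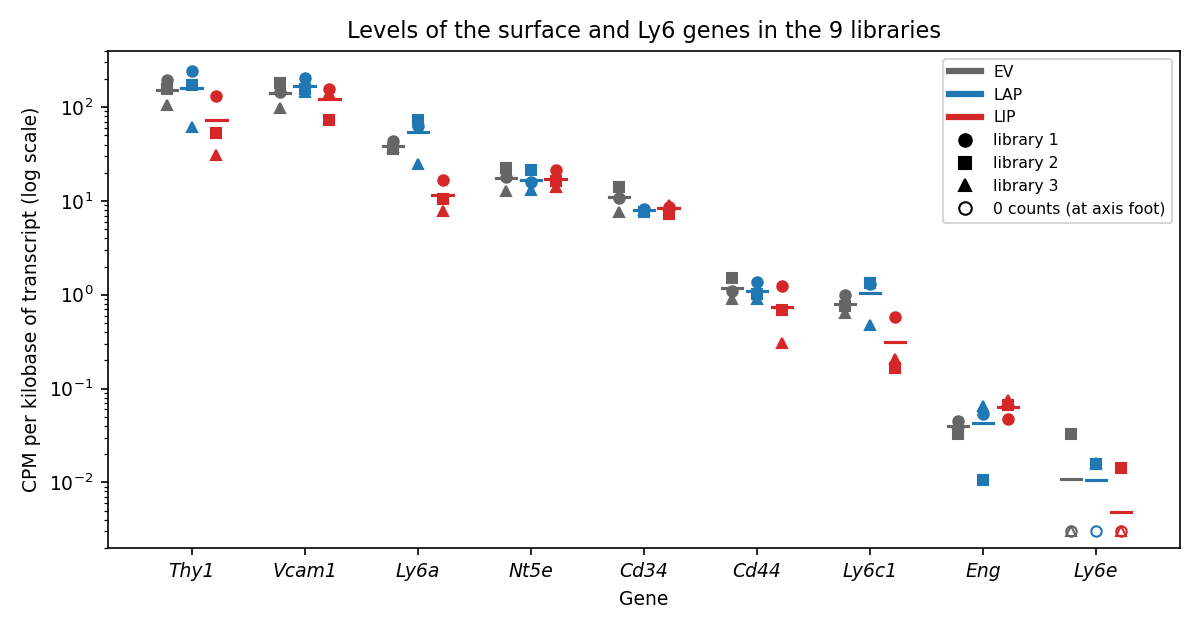
Levels of the 9 genes in the 9 libraries, in CPM per kilobase of transcript on a log axis, with genes ordered by their EV mean. Symbols mark library numbers, colours mark groups, short lines are group means and open symbols at the foot are libraries with 0 counts. The 3 LIP libraries of Ly6a lie below all other Ly6a libraries, whereas the groups of Nt5e and Vcam1 overlap.

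Ly6a was the gene with the lowest LIP levels relative to the other groups. It was covered by 1325, 931 and 1237 reads in the EV libraries 1, 2 and 3, by 1969, 1959 and 647 reads in LAP and by 392, 303 and 230 reads in LIP. Scaled, these are 41.2, 34.4 and 36.2 CPM in EV, 60.7, 70.4 and 23.9 CPM in LAP, and 16.0, 9.93 and 7.43 CPM in LIP. All LIP libraries lay below all EV and all LAP libraries, while LAP library 3 lay below EV and the other LAP libraries above it. Ly6a was 3.36-fold lower in LIP than in EV (log2 fold change -1.75, SE 0.252, adjusted p = 0.0135 by edgeR's quasi-likelihood test and the Benjamini-Hochberg method over all genes). Against LAP it was 4.57-fold lower (log2 fold change -2.19, SE 0.340, adjusted p = 0.00483 by the same test). LAP and EV overlapped, and their log2 difference of 0.46 (SE 0.281) had an adjusted p of 0.918. In RNA from whole cultures, fewer cells of a type and less RNA per cell cannot be told apart.

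The Ly6a calls depended on single libraries and on the filter, although the log2 fold change stayed between -2.09 and -1.52 against EV and between -2.55 and -1.93 against LAP under every alternative run. Against EV, the adjusted p was 0.0524 without EV library 2 and 0.0560 without LIP library 2, and against LAP it was 0.0927 without LAP library 2. With stricter filters on low counts it was 0.114 and 0.157 against EV, and 0.155 and 0.213 against LAP. In LIP against EV the main fit called 60 genes lower and 12 higher. The 1st filter left 3 lower and 1 higher and the 2nd left 0, so the loss was not confined to Ly6a. Without LAP library 3, Ly6a was higher in LAP than in EV by 0.80 on the log2 scale (adjusted p = 0.0482).

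Ly6c1, a close relative of Ly6a that marks subsets of monocytes, endothelial cells and T cells, had 25, 16 and 17 reads in EV, 33, 29 and 10 in LAP, and 11, 4 and 5 in LIP. The LIP libraries lay below every EV library but overlapped LAP, where library 3 was again the lowest. The log2 fold change was -1.36 against EV (SE 0.523, unadjusted p = 0.0223 and adjusted p = 0.352 by edgeR's quasi-likelihood test) and -1.72 against LAP (SE 0.567, adjusted p = 0.223). With LIP and LAP libraries of the same number treated as pairs, the adjusted p against LAP was 0.0182. Ly6c1 reads made up 1.63% of the summed Ly6a and Ly6c1 reads in EV (95% Clopper-Pearson interval 1.24 to 2.11), 1.55% in LAP (1.21 to 1.95) and 2.12% in LIP (1.30 to 3.25). These intervals overlapped, but they pool the reads of a group and leave out the spread between its libraries. In libraries 1, 2 and 3 the share was 1.85%, 1.69% and 1.36% in EV and 1.65%, 1.46% and 1.52% in LAP. In LIP it was 2.73%, 1.30% and 2.13%. Whether reads of Ly6a were counted as Ly6c1 was not tested.

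Ly6e, a family member known as an interferon-responsive gene that restricts or aids several viruses, had 0, 2 and 0 reads in EV, 0, 1 and 1 in LAP, and 0, 1 and 0 in LIP. All 9 values are at or under the floor of 3 counts, so no fold is given and a difference was not detectable at this depth.

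Thy1, a GPI-anchored glycoprotein that binds integrins, was high in all groups but with a wide spread inside each. It was present at 339, 268 and 185 CPM in EV libraries 1, 2 and 3, at 419, 303 and 107 CPM in LAP, and at 230, 91.6 and 53.8 CPM in LIP. In each group library 1 was the highest and library 3 the lowest, and LIP library 1 overlapped EV and LAP. Within a library number, LIP had 67.9%, 34.1% and 29.1% of the EV level and 55.0%, 30.2% and 50.2% of the LAP level, so the LIP library was the lowest of each number. No pairing was taken between LIP and EV, so the EV percentages only set libraries of the same number side by side. The log2 fold change was -1.08 against EV (SE 0.408, unadjusted p = 0.0209, adjusted p = 0.345, edgeR's quasi-likelihood test) and -1.12 against LAP (SE 0.438, adjusted p = 0.369). With the pairing of library numbers, the change against LAP was -1.18 (adjusted p = 3.53e-07). With LIP and EV paired likewise, the change against EV was -1.30 (adjusted p = 0.00393 by the same test). In unpaired fits without LIP library 1 it was -1.85 against EV (adjusted p = 0.0232), and without LAP library 3 it was -1.46 against LAP (adjusted p = 0.00912). Each was the 1 call among 6 fits with a library left out. Those fits ranged from -1.85 to -0.71 against EV and from -1.91 to -0.67 against LAP. Their adjusted p reached 0.737 and 0.797 by the same test. LAP and EV did not separate (log2 fold change 0.05, SE 0.355, adjusted p = 0.993).

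**Figure D2:**
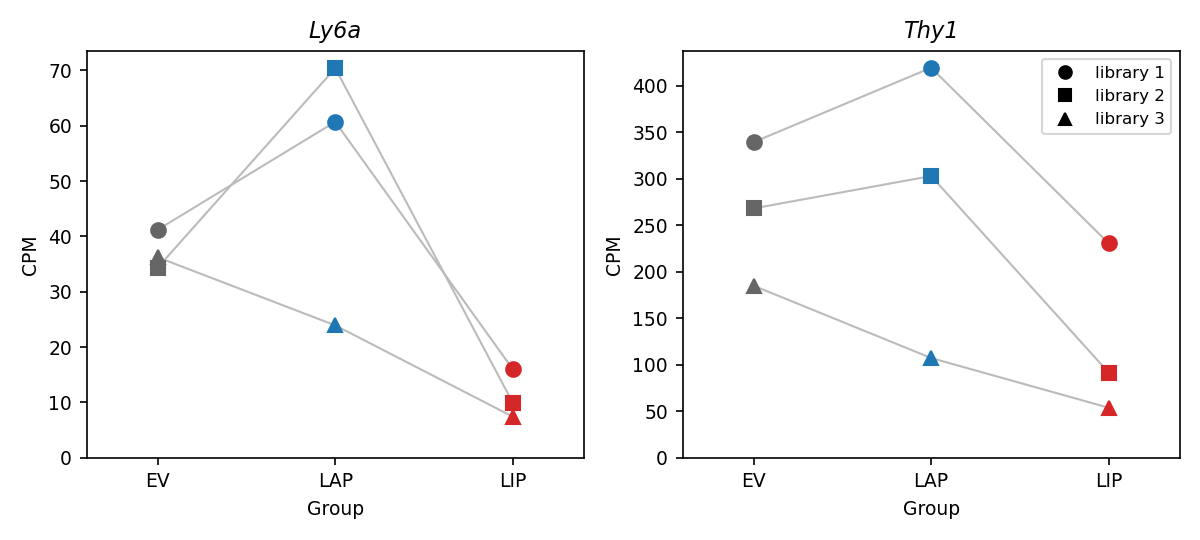
Ly6a (left) and Thy1 (right) in CPM by group, with each symbol a library and grey lines joining libraries of the same number. For Ly6a the LIP libraries lie at 16.0 CPM or less and all others at 23.9 CPM or more, and for Thy1 every line falls from LAP to LIP while the groups overlap.

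Nt5e, which turns extracellular AMP into adenosine, differed least. It was present at 71.1, 90.4 and 51.4 CPM in EV, 63.4, 86.3 and 51.9 CPM in LAP, and 86.3, 64.6 and 56.5 CPM in LIP. The groups overlapped, with log2 fold changes of -0.04 for LIP against EV (SE 0.218), 0.06 for LIP against LAP (SE 0.233) and -0.09 for LAP against EV (SE 0.216).

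Vcam1, an adhesion molecule for integrins of white blood cells that inflammatory signals induce, was present at 501, 634 and 336 CPM in EV, 708, 536 and 498 CPM in LAP, and 546, 251 and 492 CPM in LIP. LIP library 2 was the lowest of the 9, and the groups overlapped. The log2 fold change was -0.19 in LIP against EV (SE 0.288), -0.42 in LIP against LAP (SE 0.297) and 0.23 in LAP against EV (SE 0.233).

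Cd34, a sialomucin of blood progenitors, vessels and some fibroblasts, was present at 26.7, 35.0 and 18.7 CPM in EV, 20.3, 18.8 and 19.6 CPM in LAP, and 21.1, 17.9 and 22.4 CPM in LIP. EV library 3 fell among the LAP and LIP libraries, which the other EV libraries exceeded. The log2 fold change was -0.38 in LIP (SE 0.223, adjusted p = 0.583) and -0.46 in LAP (SE 0.207, unadjusted p = 0.0425, adjusted p = 0.918) against EV, and 0.08 between LIP and LAP (SE 0.227), by edgeR's quasi-likelihood test.

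Cd44, the main hyaluronan receptor, was low, with 6.19, 8.56 and 5.01 CPM in EV, 7.74, 5.71 and 5.11 CPM in LAP, and 6.94, 3.90 and 1.71 CPM in LIP. LIP library 1 fell inside the range of the other groups, and LIP libraries 2 and 3 below it. The log2 fold change was -0.66 against EV (SE 0.404, adjusted p = 0.614) and -0.55 against LAP (SE 0.388, adjusted p = 0.763) by edgeR's quasi-likelihood test.

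Eng, a co-receptor for TGF-beta and bone morphogenetic proteins, was close to the floor, with 5, 3 and 5 reads in EV, 6, 1 and 6 in LAP, and 4, 7 and 8 in LIP. Its LIP libraries in CPM lay above those of EV, yet the log2 fold change of 0.65 had an SE of 0.571 (adjusted p = 0.706 by edgeR's quasi-likelihood test).

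Counted together, 1 of the 9 genes (Ly6a) was called lower in LIP than in EV, against 0.330% of all 18203 genes tested. Ly6a, Ly6c1 and Thy1 were the 3 genes that were lower with an unadjusted p under 0.05, against 6.75% of all genes. Ly6a and Ly6c1 were the 2 genes whose LIP libraries all lay below EV, against 8.83% of all genes, and Eng was the 1 gene above, against 6.80%. In LIP against LAP, Ly6a was again the 1 gene called lower (0.837% of all genes) and the 1 gene lower without overlap (6.90%), and 3 genes, Ly6a, Ly6c1 and Thy1, had a lower level with an unadjusted p under 0.05 (5.98%). With the pairing of library numbers, 3 of the 9 genes were called lower in LIP than in LAP, where the paired fit called 4.79% of all genes lower. LAP against EV gave 0 calls in either direction by edgeR's quasi-likelihood test (0.0606% of all genes), by the edgeR exact test and by DESeq2, while Cd34 was the 1 gene lower with an unadjusted p under 0.05 (against 1.34%). The median log2 fold change of the 9 genes was -0.66 in LIP against EV and -0.55 in LIP against LAP, beside 0.04 and 0.02 for all genes tested. Both medians include the fitted value of Ly6e, whose reads lie at or under the floor. In LAP against EV the middle gene was Ly6e itself, so no median is given there. Since the genes were chosen with such results known, nothing is read from these counts. LIP against EV and LIP against LAP also share their LIP libraries.

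**Figure D3:**
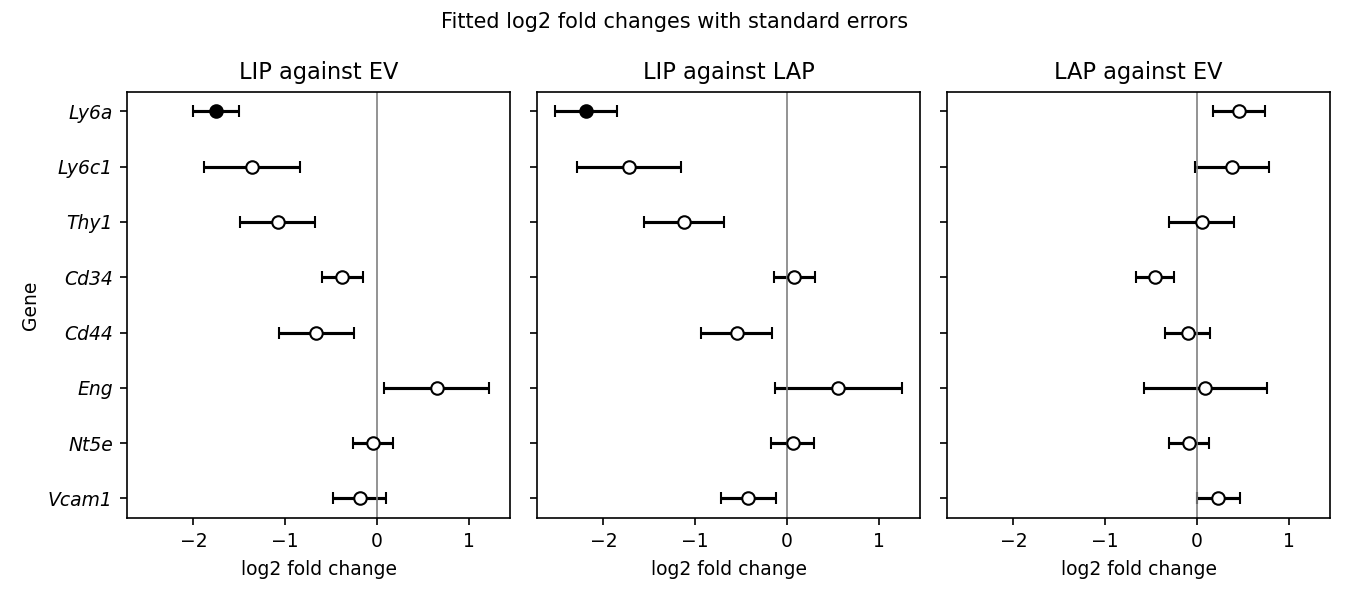
Fitted log2 fold changes of 8 genes in the 3 comparisons, with bars for the standard error and filled points for an adjusted p under 0.05; Ly6e is left out for its low counts. Ly6a at -1.75 and -2.19 is the filled point in the LIP comparisons, and no point is filled for LAP against EV.

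Ly6a, Ly6c1 and Ly6e lie in a stretch of 557 kilobases on chromosome 15 (GRCm38.p6, 74714839 to 75272237). The stretch was bounded by choice at Psca and Ly6f, is called the cluster here, and leaves out family genes that lie elsewhere. It holds 35 RefSeq genes. Of these, 19 were in the count table and 7 had at least 20 reads over the 9 libraries. Ly6a supplied 8993 reads and Ly6c1, 45986 bases away from Ly6a, supplied 150. Ly6a and Ly6c1 were not the members of the cluster with the largest change. Lynx1, which encodes a GPI-anchored modulator of nicotinic acetylcholine receptors and lies 241897 bases from Ly6a, had 59, 39 and 57 reads in EV, 65, 51 and 37 in LAP, and 4, 9 and 9 in LIP. It was 6.43-fold lower in LIP than in EV (log2 fold change -2.68, SE 0.382, adjusted p = 0.0135) and 6.68-fold lower than in LAP (log2 fold change -2.74, SE 0.439, adjusted p = 0.00557, edgeR's quasi-likelihood test). Psca, a further Ly6 family gene, had a log2 fold change of -1.24 in LIP against EV (SE 0.369, adjusted p = 0.200) without overlap, and Them6 one of -0.53. Between Lynx1 and Ly6a, Ly6m had a log2 fold change of 1.54 in LIP against EV (SE 0.597, adjusted p = 0.358), with 41 of its 64 LIP reads in library 2. At the other bound of the stretch, Ly6f had one of 0.25 (SE 0.368, adjusted p = 0.816). Of the 7 fitted values, 5 lay below 0 in LIP against EV, where 46.0% of all genes lay. Of these 5, Lynx1 and Ly6a were called, while Psca and Ly6c1 were not, and for Them6 only the fitted value is given. Neither value above 0 passed the test.

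**Figure D4:**
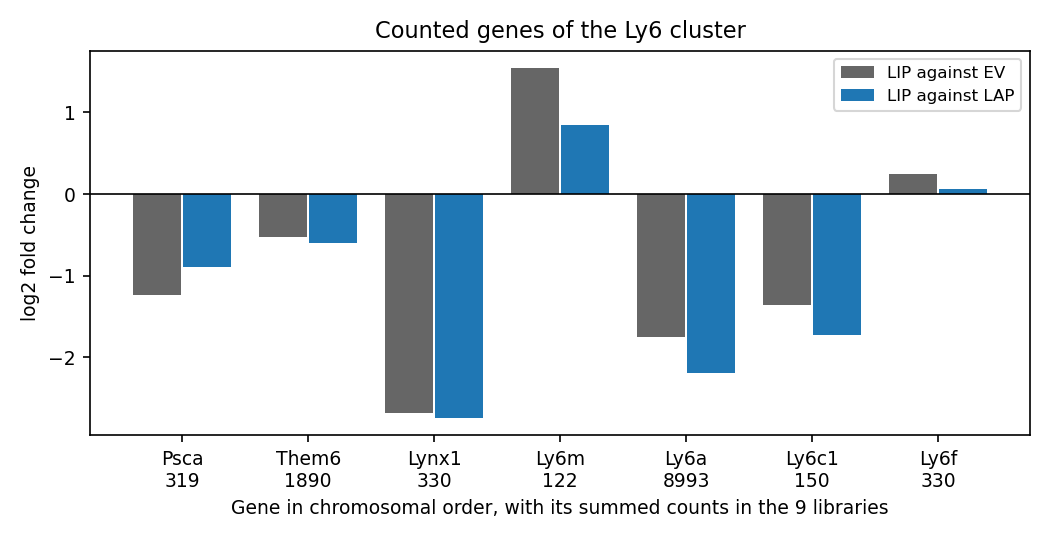
Fitted log2 fold changes of the 7 Ly6 cluster genes with at least 20 reads, in chromosomal order, for LIP against EV (grey) and LIP against LAP (blue), with summed reads under each name. Lynx1, Ly6a and Ly6c1 have values below -1 in both comparisons, while Ly6m and Ly6f lie above 0; no error bars are drawn.

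C/EBPβ isoforms bind DNA directly, so the start regions of the genes were searched for letters of the C/EBP site, TTGCGCAA and TTGCNNAA. The letters CCAAT were searched as well and are not counted here as a C/EBP site. RefSeq promoter windows (250 bases before to 50 after a start, GRCm38.p6) were at hand for 5 of the 9 genes, as 6 windows, and not for Ly6a, Ly6e, Thy1 or Vcam1. TTGCGCAA and TTGCNNAA, which includes it, occurred on neither strand in any of the 6, and in 0.183% and 10.8% of all 32851 windows. CCAAT, searched on both strands, occurred in 37.4% of all windows and in 1 of the 6, at -95 from a Ly6c1 start, which is shown with this motif in capitals (chr15:75048788-75049087, minus strand).
Ly6c1: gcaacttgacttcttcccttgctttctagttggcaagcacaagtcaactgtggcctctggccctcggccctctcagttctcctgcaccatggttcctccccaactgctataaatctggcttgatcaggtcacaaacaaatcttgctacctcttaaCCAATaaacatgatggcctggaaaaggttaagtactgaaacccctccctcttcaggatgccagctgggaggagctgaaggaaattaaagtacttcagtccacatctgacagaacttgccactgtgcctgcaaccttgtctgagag
A match in letters describes the window only, and its absence says nothing about binding.

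Genes that work with the 9 were read from 9 lists (221 genes, 217 in the table). No floor was applied to them, so genes with few reads enter the counts and medians of the lists. In LIP against EV, 2 of the 193 genes tested were called lower and 0 higher, and with an unadjusted p under 0.05 there were 30 below and 8 above EV, the latter beside 4.23% of all genes. Besides Lynx1, the gene called was Tgfbr3, the TGF-beta co-receptor betaglycan, which is related to endoglin and fell from an EV mean of 134 ± 16.3 CPM to a LIP mean of 54.1 ± 20.3 CPM (SD, n = 3 each, adjusted p = 0.0397, edgeR's quasi-likelihood test). In LIP against LAP, 6 of 199 were called lower and 1 higher (0.209% of all genes), and with the pairing of library numbers 26 were lower and 4 higher, beside 4.79% and 1.72% of all genes in the paired fit. LAP against EV gave 0 calls among 201, with 1 below and 8 above EV when unadjusted p-values were used (1.34% and 1.93% of all genes), and 3 higher with the pairing (0.132%).

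The 30 other mesenchymal surface genes had 9 lower and 1 higher in LIP against EV by the unadjusted p, with a median log2 fold change of -0.30. In LIP against LAP the proteases Fap (log2 fold change -2.41, adjusted p = 0.0244) and Anpep, or CD13 (-1.49, adjusted p = 0.0471), were called lower by edgeR's quasi-likelihood test. Icam1, an adhesion molecule of the same family as Vcam1, averaged 2.58 ± 0.474 CPM in EV, while its LIP mean was 6.48 ± 1.16 CPM (SD, n = 3 each, log2 fold change 1.33, adjusted p = 0.0536), whereas Vcam1 overlapped between these groups.

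Among the 22 Ly6 and uPAR domain genes tested besides the 3 members, 2 were lower and 1 higher in LIP against EV by the unadjusted p (median log2 fold change -0.65). In the CD44 and hyaluronan list, 4 of 26 were lower and 2 higher (median 0.02), led by the hyaluronan-degrading Cemip (log2 fold change -1.02, adjusted p = 0.0675). The endoglin and BMP receptor list had 3 of 23 lower and 2 higher (median -0.04). The Vcam1 integrin and NF-kB list had 4 of 18 lower and 1 higher (median -0.12), and its integrin Itga9, a receptor for Vcam1, was called lower in LIP than in LAP (log2 fold change -2.20, adjusted p = 0.0463, edgeR's quasi-likelihood test).

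The CD73 and adenosine list had 3 of 19 lower and 1 higher in LIP against EV (median -0.10). Alpl, a GPI-anchored phosphatase that can dephosphorylate AMP as Nt5e does, was 8.70-fold lower in LIP than in LAP (log2 fold change -3.12, SE 0.635, adjusted p = 0.0238), with Nt5e itself overlapping. Of the 32 GPI anchor genes, 0 were lower and 1 was higher against EV (median 0.04), namely Gdpd5, which belongs to the GDPD family whose members can release GPI-anchored proteins. It was called higher in LIP than in LAP (log2 fold change 1.06, adjusted p = 0.0325, edgeR's quasi-likelihood test). The Thy1 and Cd34 partner list had 2 of 14 lower and 0 higher (median -0.14), with the smallest p for integrin Itgb5 (log2 fold change -1.03, adjusted p = 0.104).

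The interferon response list had the lowest median, -1.09 in LIP against EV, with 16 of 17 genes below 0, where 46.0% of all genes lay, and 4 lower by the unadjusted p. That median and these counts include genes with few reads, such as Mx1 (1 in EV, 0 in LIP) and Psmb9 (4 in EV, 0 in LIP). The summed level of the list was 75.0 to 84.0 CPM in EV, 74.3 to 76.8 CPM in LAP and 54.6 to 80.5 CPM in LIP, so the sums overlapped. Bst2 and Stat2, with EV means of 40.9 and 25.7 CPM, supplied most of the EV sums. Gbp2, an interferon-induced GTPase, was called lower in LIP than in LAP (log2 fold change -1.48, adjusted p = 0.0386, edgeR's quasi-likelihood test). In LIP against LAP the median of the list was -0.42. The part of interferon-responsive genes in the Ly6a values was not tested.

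Values of several fibroblast markers were low in LIP beside those of Ly6a. In LIP against EV, 7 of the 12 were lower by the unadjusted p, beside 6.75% of all genes. The median log2 fold change of the 12 was -0.96, and Postn, the matrix protein periostin, was called lower (-2.40, adjusted p = 0.0481, edgeR's quasi-likelihood test). Other markers hardly differed, such as Vim with means of 4556 CPM in EV and 4348 CPM in LIP, and S100a4 with 1730 and 1758 CPM. In LIP against LAP the same numbers were 7 of 12 (5.98% of all genes) and -0.89, with 1 marker called lower. With the pairing of library numbers 8 of 12 were called lower, beside 4.79% of all genes. The part of the fibroblast markers in the Ly6a and Thy1 values was not tested. Of the markers of other cell types, 1 of 8 haematopoietic genes tested (Cd14, log2 fold change -0.72, adjusted p = 0.329) and 1 of 6 endothelial genes (Tek, -1.44, adjusted p = 0.313) were lower in LIP than in EV by the unadjusted p of edgeR's quasi-likelihood test. For the 7 epithelial genes it was 1 lower (Cdh1, -1.10, adjusted p = 0.292) and 2 higher. Most haematopoietic values went the other way from Cd14, with 5 of 8 above 0 (median log2 fold change 0.60). Of the endothelial values 1 of 6 lay above 0 (median -0.47). The pairing raised the calls in LIP against LAP from 0 to 2 lower of 8 haematopoietic genes, among them Cd14, and from 0 to 1 lower of 5 endothelial genes, which was Tek. In that comparison 5 of the 8 haematopoietic values from the unpaired fit lay above 0 (median 0.49). Of the 5 endothelial values 2 did (median -0.03).

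The genes whose levels followed Ly6a most closely over the 9 libraries, out of 10251 genes averaging 50 counts or more, were Abcd2 (Pearson's r = 0.995), Slc1a3 (r = 0.993), Gpx7 (r = 0.988), Prrx1 (r = 0.988) and Lrrc17 (r = 0.983). The points share library and depth, and these genes were picked for their likeness, so their values are a description. Slc1a3, a glutamate transporter, averaged 12.4 CPM in EV, 14.7 CPM in LAP and 3.13 CPM in LIP. Gpx7, of the glutathione peroxidase family, averaged 15.2, 20.4 and 3.55 CPM, and Prrx1, a homeobox factor of limb and craniofacial mesenchyme, 27.0, 31.2 and 14.4 CPM in the same order.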

How the data were processed

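The authors made TruSeq RNA v2 libraries, sequenced them as single-end reads of 50 bases, aligned them with TopHat 1.4.1 and counted reads per gene with HTSeq 0.5.4 (bcl2fastq 1.8.3 for base calls, per the labels). They deposited raw counts of 23337 gene symbols in 9 columns, with 0 columns unused here. Strand setting and handling of multiply aligned reads are not given in the sources used here, and the stated build (GRCh38/mm10) was read as mm10. Groups came from the labels. The genes and all lists were chosen with earlier results of these data known.

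Groups were compared in pairs on their 6 libraries, over genes with at least 1 count. After TMM scaling (factors 0.949 to 1.10), genes were tested by the quasi-likelihood method of edgeR 4.0.16 (R 4.3.3), with p-values adjusted after Benjamini-Hochberg at a threshold of 0.05. An exact permutation test of 3 against 3 libraries cannot give a p below 0.1 and was not used. SEs were derived from the log2 fold change and the F value. CPM use TMM over all 9 libraries. No libraries agreed within sampling noise (chi-square per degree of freedom 19.2 to 209). The script was tested on simulated data. Listed genes under older symbols were matched by RefSeq synonyms. Lengths, shared stretches and coding starts came from GENCODE vM21, promoters and cluster positions from RefSeq. Figures used matplotlib 3.10.9.

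Named were all 9 genes, listed genes past the threshold (up to 6 a list) or else the gene with the smallest p in LIP against EV, and the 5 genes most like Ly6a. Neighbouring Psca, Them6, Ly6m and Ly6f were named after their values were seen.

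Labels number libraries 1 to 3 in each group. Deviations from group means correlated between same-numbered libraries at 0.558, 0.413 and 0.466 in LIP and LAP, and at 0.524, 0.210 and 0.511 in LAP and EV, so these were taken as paired and a fit with a replicate block is given where it changed a call. In LIP and EV the values were 0.290, -0.121 and 0.231, and no pairing was taken on these values. If the numbers mark a batch common to all 3 groups, LIP and EV would be paired as well. The labels do not settle this, so the fit with the block is also given for LIP against EV. Alternatives were scaling by DESeq2's size factors or by total counts alone, filtering by filterByExpr or by 10 counts in each library, testing by DESeq2 1.42.0 or edgeR's exact test, a joint model of all 9 libraries, the replicate block, leaving out each library and a threshold of 0.01.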

Additional observations from a re-analysis of the deposited data

How the results depend on the processing

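Of 328 values of the 8 genes with a fold change recomputed under alternatives, 296 kept their direction and side of the threshold, 7 lost a call, 6 gained one and 19 changed sign, and the cause was not tested. The sign changed for Nt5e in LIP against EV with total counts only (0.00381) and for Thy1 in LAP against EV with the replicate block (-0.11). With 1 library left out, log2 fold changes ranged across 0 in LIP against EV for Nt5e (-0.22 to 0.18) and Vcam1 (-0.40 to 0.08), in LAP against EV for Thy1 (-0.39 to 0.44), Cd44 (-0.30 to 0.13), Eng (-0.28 to 0.53) and Nt5e (-0.30 to 0.11), and in LIP against LAP for Nt5e (-0.13 to 0.26).

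The 1 call among the 9 genes in LIP against EV became 0 with filterByExpr (3 lower and 1 higher of all 12424 genes). It also became 0 with at least 10 counts in every library (0 of all 11505). At a threshold of 0.01 it became 0 too (11 lower and 2 higher of all 18203). With 1 library left out it ranged from 0 to 2, with 2 without LIP library 1 (246 lower and 36 higher of all 18094). In LIP against LAP the 1 call became 0 under both filters and ranged from 0 to 2. It became 3 with the replicate block (871 lower and 312 higher of all 18166). In LAP against EV, 0 calls became 1 without LAP library 3 (21 lower and 41 higher of all 17844, range 0 to 1). In LIP and EV, where no pairing was taken, the replicate block gave 2 calls, with Thy1 at an adjusted p of 0.00393, beside 402 lower and 65 higher of all genes. It also called 4 fibroblast markers instead of 1, and Icam1 (adjusted p = 0.0119), Cemip (0.0111) and Itgb5 (0.0240).

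Of the listed genes, the 2 calls in LIP against EV became 1 with total counts only, 0 under both filters and at 0.01, 11 with DESeq2 and with the edgeR exact test, 4 in the single model and 16 with the replicate block, and ranged from 1 to 10, with 9 without LIP library 1, 10 without LIP library 3, and 1 without EV library 2, EV library 3 or LIP library 2. The 7 calls in LIP against LAP became 4 with total counts only, 0 under both filters, 1 at 0.01 and 30 with the replicate block, and ranged from 0 (without LAP library 2) to 10, with 4 without LIP library 1 and 2 without LIP library 2. The 0 calls in LAP against EV became 3 with the replicate block and 3 without LAP library 3 (range 0 to 3). Of all genes in LIP against EV, DESeq2 called 248 lower and 73 higher, and the edgeR exact test 242 and 59. The single model called 71 lower and 17 higher there, and total counts only 30 and 6. The strict filters tested 12424 and 11505 genes against 18203 in LIP against EV and left out the genes with few reads, Ly6e and Eng under both and Ly6c1 also under the second in the LIP comparisons. Few reads limit Ly6c1, Ly6e and Eng.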
